A study of Mus musculus with 2 samples.

Results

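Chemokine signalling in the light-damaged mouse retina was followed through 8 ligand genes (Ccl2, Ccl3, Ccl4, Ccl7, Ccl12, Cxcl1, Cxcl10 and Cx3cl1) and 1 receptor gene (Ccr9). They were taken by name, and make up 9 of the 32285 genes counted. For each gene the question was which of 5 retinal cell classes held its transcripts, and how its level differed between the control and the light damage library. The cell classes were microglia, Müller glia, retinal pigment epithelium (RPE), cones and rods, each named from the UMIs of marker genes.

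Dissociated retinal cells were profiled by droplet single-cell RNA sequencing, with 1 library of control and 1 of light-damaged mice. All mice were 6 to 9 weeks old, of both sexes, on a Balb-C/CD1 background, with 2 floxed Tgfbr2 alleles that leave the gene functional and with the light-sensitive leucine variant of RPE65. Both groups spent 18 h in darkness, after which the light damage group was exposed to white light of 5000 lux for 30 min and recovered for 6 h in dim light, while control mice received no exposure. Each library pooled the retinae of 3 to 5 mice, perfused with PBS, digested for 45 min at 8 °C and passed over beads that remove dead cells. With 1 library a condition there was no replicate, and no test of the condition could be made. Every interval given is an exact 95% interval that covers counting error only.

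Chemokines are small secreted proteins that draw leukocytes along a gradient by binding receptors on their surface. The CC ligands Ccl2, Ccl7 and Ccl12 are monocyte attractants that bind Ccr2, and Ccl3 and Ccl4 attract macrophages and T cells. Cxcl1 attracts neutrophils through Cxcr2, and Cxcl10 is induced by interferon and binds Cxcr3. Cx3cl1 (fractalkine) is held on the cell membrane and binds Cx3cr1, the receptor that marks retinal microglia, and Ccr9 is the receptor for Ccl25 on gut-homing T cells.

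On the GRCm38 build the CC ligands lie in 2 groups on chromosome 11. Ccl2 (chr11:82035571-82037453), Ccl7 (chr11:82045712-82047525) and Ccl12 (chr11:82101845-82103400) are on the plus strand. Ccl3 (chr11:83647844-83649355) is on the minus strand and Ccl4 (chr11:83662584-83664683) on the plus strand. Cxcl1 (chr5:90891241-90893115, plus strand) and Cxcl10 (chr5:92346638-92348889, minus strand) share chromosome 5. Cx3cl1 (chr8:94772009-94782427) and Ccr9 (chr9:123678439-123784330) are both on the plus strand.

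The 250 bases before the RefSeq start site (GRCm38.p6) are printed for 4 ligands, because their source cells differed. In kept droplets Ccl3 and Ccl12 were held almost wholly by microglia. Cxcl1 was held mainly by Müller glia and RPE, and Cxcl10 mainly by all 3 classes. Each runs 5′ to 3′ on the strand of its gene, at chr11:83649379-83649628 (Ccl3, minus), chr11:82101595-82101844 (Ccl12, plus), chr5:90890995-90891244 (Cxcl1, plus) and chr5:92348890-92349139 (Cxcl10, minus). Capitals mark motif matches, and positions count back from the start site.
Ccl3: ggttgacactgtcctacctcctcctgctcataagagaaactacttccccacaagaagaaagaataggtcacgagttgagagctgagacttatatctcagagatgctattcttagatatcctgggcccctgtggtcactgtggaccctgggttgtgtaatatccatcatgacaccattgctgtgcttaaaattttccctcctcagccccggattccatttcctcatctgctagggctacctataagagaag
Ccl12: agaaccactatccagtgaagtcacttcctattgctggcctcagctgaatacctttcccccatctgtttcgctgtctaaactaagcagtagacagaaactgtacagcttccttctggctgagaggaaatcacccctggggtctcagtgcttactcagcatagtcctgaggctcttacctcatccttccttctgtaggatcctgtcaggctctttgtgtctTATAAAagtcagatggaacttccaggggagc
Cxcl1: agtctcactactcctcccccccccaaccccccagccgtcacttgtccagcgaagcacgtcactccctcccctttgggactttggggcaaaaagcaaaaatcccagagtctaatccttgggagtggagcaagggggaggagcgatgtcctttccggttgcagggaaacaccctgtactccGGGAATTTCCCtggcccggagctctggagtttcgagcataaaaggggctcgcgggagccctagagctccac
Cxcl10: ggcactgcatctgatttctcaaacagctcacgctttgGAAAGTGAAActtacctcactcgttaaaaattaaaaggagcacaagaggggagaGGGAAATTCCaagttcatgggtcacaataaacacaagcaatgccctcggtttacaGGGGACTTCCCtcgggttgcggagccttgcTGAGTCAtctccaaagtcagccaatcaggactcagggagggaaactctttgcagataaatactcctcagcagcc

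Matches were sought for the NF-kB motif, the interferon response element (GAAA, 2 bases of any kind, GAAA) and the AP-1 motif TGANTCA on both strands, and for TATAAA on the strand of the gene. The Cxcl1 promoter held an NF-kB match at bases -71 to -62 with an overlapping match on the other strand at -70 to -61. The Cxcl10 promoter held an NF-kB match at -159 to -150, an overlapping group between -104 and -94, an interferon response element at -213 to -204 and an AP-1 match at -74 to -68. Ccl12 held TATAAA at -31 to -26, and none of these letters was found in the window of Ccl3. Of the other members with a promoter in the RefSeq table, Cx3cl1 held TATAAA at -6 to -1 and Ccr9 held no match. Over 32851 promoters of the same length, 7.25% held the NF-kB motif, 2.98% the interferon response element, 6.75% the AP-1 motif and 7.59% TATAAA. The RefSeq table matched 6 of the 9 members, and Ccl2, Ccl4 and Ccl7 are named without a promoter.

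The libraries differed in size and in makeup. In control 30605284 UMIs (molecules after collapsing of PCR copies) were counted and after light damage 54413601, with unspliced shares of 18.7% and 32.7%. All levels below are CPM, the spliced and ambiguous UMIs of the gene for every 1000000 such UMIs of the class, and compare a gene between classes or libraries, not 1 gene with another. After filtering, 3669 control and 5593 light damage droplets remained. The libraries shared 7 barcodes among kept droplets, all of them rods after light damage, and no count of members past 2-fold changed without them. Microglia numbered 12 control and 41 light damage droplets, Müller glia 52 and 96, RPE 159 and 291, cones 184 and 99, and rods 3182 and 4926. Droplets were deeper after light damage, with median UMIs of 2753.5 and 6336 in microglia, 1469.5 and 3613.5 in Müller glia, 2519 and 5670 in RPE, 2054.5 and 9175 in cones, and 2349 and 2854 in rods. The median gene, among those reaching 50 UMIs in each library of a class, moved by -0.46, -0.24, -0.11, -0.02 and 0.44 on the log2 scale, in the same order, which is the shift against which the log2 differences below stand.

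All 11 microglia markers were detected in the microglia of both libraries, at a summed 18792 CPM in control and 22352 CPM after light damage. The 8 rod markers summed to 41832 CPM in control microglia and to 4261 CPM in light damage microglia, so that rod RNA moved with the condition in this class. Of 5 monocyte markers (Ccr2, Ly6c2, Plac8, Chil3 and Vcan) none was detected in control microglia, while they summed to 130 UMIs (348 CPM) after light damage. The 5 border macrophage markers summed to 0 and 4 UMIs. Müller glia held all 10 of their markers in both libraries, at 25141 CPM in control and 6893 CPM after light damage, with 8 of the 10 at least 2-fold lower, beside rod markers at 18001 and 28344 CPM. Of the cone markers in Müller glia, Opn1sw was at 0 UMIs in control and 231 CPM after light damage, and Arr3 at 0 UMIs and 185 CPM. Pericyte markers in Müller glia summed to 830 CPM (117 UMIs, 71 of them in 2 droplets) in control and to 43.7 CPM after light damage, and endothelial markers to 1071 and 770 CPM. Erythroid markers in rods summed to 5.50 CPM in control and to 406 CPM after light damage. RPE markers summed to 140402 and 113909 CPM in RPE. The part of these differences in the chemokine values was not tested.

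Over all barcodes of a library, every ligand was close to absent in control and higher after light damage. The control library held 2 UMIs of Ccl2, 3 of Ccl3, 5 of Ccl4, 1 of Ccl7, 5 of Ccl12, 3 of Cxcl1, 0 of Cxcl10 and 9 of Cx3cl1. The light damage library held 767, 4777, 8309, 131, 3142, 229, 218 and 108, in the same order. On the CPM scale the log2 difference was 8.03 for Ccl2 (6.17 to 11.08), 10.08 for Ccl3 (8.53 to 12.36), 10.14 for Ccl4 (8.92 to 11.77) and 6.48 for Ccl7 (3.97 to 11.79). It was 8.74 for Ccl12 (7.52 to 10.36), 5.70 for Cxcl1 (4.13 to 7.99) and 3.03 for Cx3cl1 (2.05 to 4.2), and Cxcl10 was at least 49.4-fold higher. Ccr9 was the only member with many control UMIs, 351 against 1253, a log2 difference of 1.28. These totals mix the number of cells of a type with the RNA per cell, which they cannot tell apart, so each class was taken in turn.

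**Figure D1:**
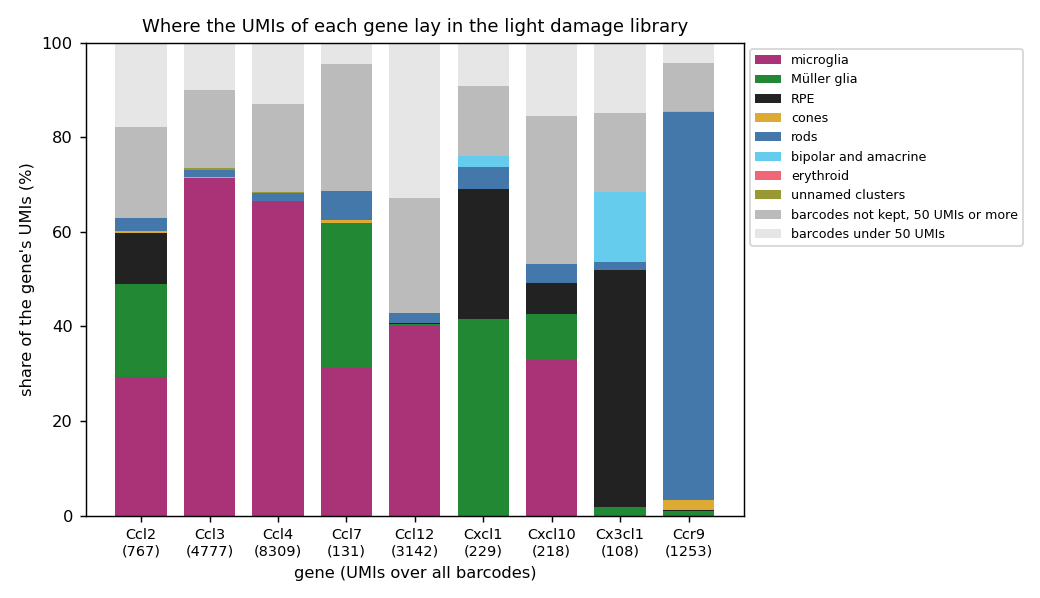
Share (%) of each gene's spliced and ambiguous UMIs over all barcodes of the light damage library, by cell class, with barcodes outside the kept droplets in grey and the number of UMIs under each name. Microglia held 71.3% of Ccl3 and 66.5% of Ccl4, whereas Ccl2, Ccl7, Cxcl1, Cxcl10 and Cx3cl1 were shared among several classes.

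Ccl3 and Ccl4 came almost wholly from microglia. Of the Ccl3 UMIs in kept light damage droplets, 97.1% lay in microglia, and of the Ccl4 UMIs 97.3%, whereas microglia held 1.64% of all UMIs. The 12 control microglia, which held between 1128 and 6028 UMIs each, had 1 Ccl3 UMI in each of 2 droplets and 0 Ccl4 UMIs. This corresponds to 61.1 CPM of Ccl3, and for Ccl4 to less than the 91.7 CPM that 3 UMIs would give. In light damage microglia Ccl3 reached 9130 CPM (8826 to 9442) and Ccl4 14811 CPM (14423 to 15207). Ccl3 was 149-fold higher, a log2 difference of 7.22 (5.37 to 10.27), and Ccl4 was at least 162-fold higher. Ccl3 was present in 30 of 41 light damage droplets (73.2%, 57.1 to 85.8) and Ccl4 in 31 (75.6%), or in 56.4% and 65.2% with each droplet thinned to 1000 UMIs. In control microglia Ccl4 was found in 0 of 12 droplets, which allows a share of up to 25% by counting error, a limit on droplets with a UMI and not on cells expressing the gene. Light damage Müller glia, which should lack both genes, had 1 UMI of Ccl3 and 0 of Ccl4 in 96 droplets.

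Ccl12, a Ccr2 ligand of the mouse, was the other gene held mainly by microglia, with 94.1% of its UMIs in kept droplets and 40.4% of those over all barcodes. It was at 0 UMIs in control microglia and at 3401 CPM (3216 to 3593) after light damage, in 32 of 41 droplets (78.0%), at least 37.1-fold higher. Its neighbour Ccl2 was at 603 CPM (527 to 687) in 21 droplets (51.2%), against 0 UMIs in control, at least 6.58-fold higher. Ccl7 reached 110 CPM (78.8 to 149) in 5 droplets, at least 1.20-fold higher, a bound set by the few control UMIs of the class. The exact interval of its log2 difference starts at -0.10 and thus includes no difference. Cxcl10 reached 193 CPM (151 to 243), at least 2.10-fold higher, but all its UMIs lay in 2 droplets, 48 in one and 24 in the other. Cxcl1, Cx3cl1 and Ccr9 were at 0 spliced and ambiguous UMIs in the microglia of both libraries, and Ccr9 had 5 unspliced UMIs after light damage.

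Of the 6 members with at least 10 UMIs in microglia, 5 were at least 2-fold higher after light damage and none lower, where 14.6% of 5977 genes were at least 2-fold higher and 18.1% at least 2-fold lower. Since control microglia held almost no UMI of any member, each passed the minimum through the light damage library, and the count describes these libraries without further support.

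**Figure D2:**
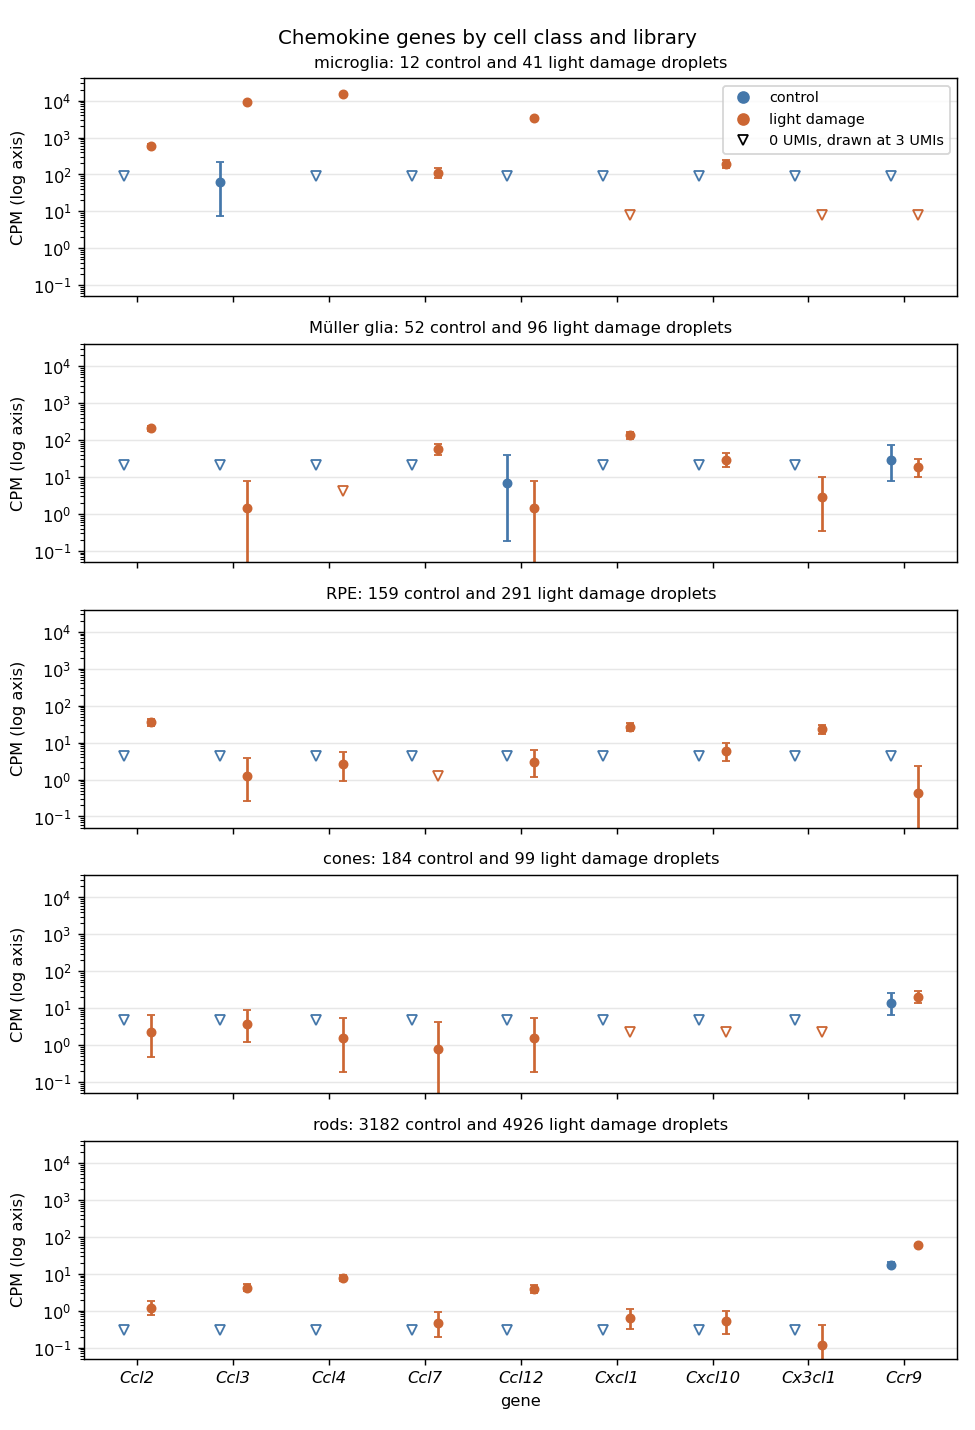
Level (CPM, log axis) of each gene in 5 cell classes of the control (blue) and light damage (orange) library, as points with 95% counting intervals; open triangles stand for 0 UMIs and are drawn at the level of 3 UMIs. Ccl3, Ccl4 and Ccl12 each stand higher in light damage microglia than in any other class, Cxcl1 and Cx3cl1 are at 0 there, and Ccr9 is the only gene with many control UMIs.

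The microglia were not alike in what they held. A single light damage droplet had 2844 of the 8934 UMIs of Ccl3 and Ccl4 together (31.8%), and the top 5 held 77.8%. For Ccl2, Ccl7 and Ccl12 together the top droplet had 313 of 1535 UMIs (20.4%) and the top 5 held 62.2%. No droplet was in the top 5 of both groups of genes. With 5 of 41 droplets in each top group, this can also occur where the groups are unrelated. No expected overlap was computed, here or for the gene pairs shared in droplets below. In 21 droplets the Ccl3 and Ccl4 UMIs were the more numerous, in 17 the UMIs of the Ccr2 ligands, and in 3 they were equal. Across the 41 droplets, which share 1 library, Spearman's rank correlation between CPM values was 0.90 for Ccl3 and Ccl4, -0.18 for Ccl3 and Ccl12 and 0.35 for Ccl2 and Ccl12. The same correlation with the depth of the droplet was 0.44 for Ccl3, 0.58 for Ccl4, 0.53 for Ccl2 and 0.09 for Ccl12. At least 1 member was found in 39 of the 41 droplets, at least 3 in 26 and at least 5 in 6.

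Clustering that used none of the chemokine genes parted the microglia into 2 clusters. Cluster 10a held all 12 control and 17 light damage droplets, and cluster 10b held 24 light damage droplets and none from control, so that this cluster and its library cannot be told apart. Ccl12 was at 8590 CPM in the light damage droplets of 10a and at 2525 CPM in 10b. Ccl4 had the opposite order, with 3952 and 16645 CPM, as did Ccl3, with 2523 and 10246 CPM. Ccl2 was at 501 and 620 CPM, but was found in 4 of the 17 droplets of 10a (23.5%) and in 17 of the 24 of 10b (70.8%). The median depth of these droplets was 2508 UMIs in 10a and 12131 UMIs in 10b. The shares were thus taken at unequal depth, and no difference in the number of cells expressing Ccl2 is read from them. A single droplet of 10a held 20 of its 27 Ccl2 UMIs, and without that droplet, left out after seeing the data, Ccl2 was at 143 CPM there (57.4 to 294). That interval overlaps the 0 to 113 CPM of the control droplets of 10a. Within cluster 10a, the cluster that both libraries share, Ccl12 was at least 93.7-fold higher than in control, Ccl4 at least 43.1-fold and Ccl2 at least 5.46-fold (1.56-fold without the droplet that held most of it), and the log2 difference of Ccl3 was 5.37 (3.49 to 8.43). The 5 monocyte markers summed to 0 UMIs in the light damage droplets of 10a and to 130 UMIs in 10b, the rod markers to 15955 and 2287 CPM.

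**Figure D3:**
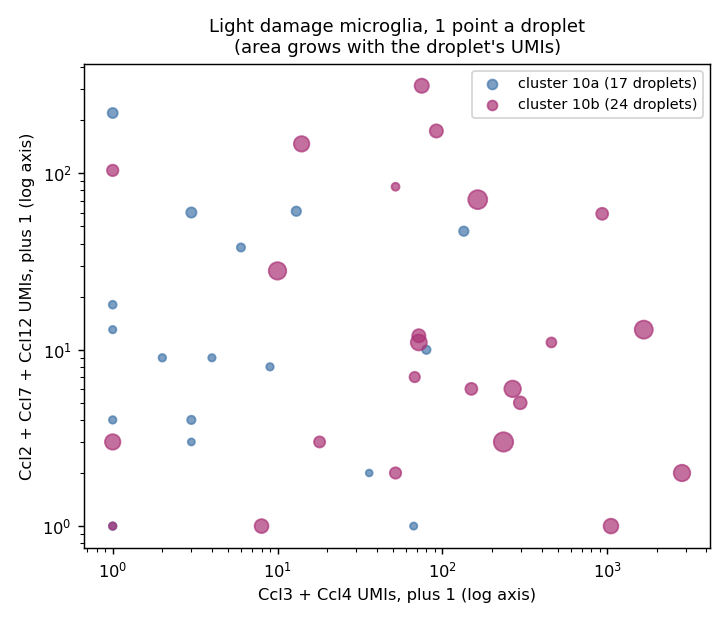
UMIs of Ccl2, Ccl7 and Ccl12 (y axis) against UMIs of Ccl3 and Ccl4 (x axis) in the 41 light damage microglia, both plus 1 on log axes, 1 point a droplet with an area that grows with its UMIs. The droplets richest in Ccl3 and Ccl4 lie in cluster 10b, whereas the droplet with the most Ccl12, 219 UMIs, is in 10a.

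Müller glia were the second source of Ccl2 and Ccl7, with 31.1% and 44.4% of the UMIs in kept droplets, against 46.6% and 45.6% in microglia, and the first source of Cxcl1, with 54.6%. All 3 were at 0 UMIs in the 52 control Müller glia. After light damage Ccl2 was at 211 CPM (179 to 248) in 17 of 96 droplets, at least 9.94-fold higher. Cxcl1 was at 134 CPM (108 to 164) in 13 droplets, at least 6.30-fold higher. Ccl7 was at 56.4 CPM (40.3 to 76.8) in 6 droplets, at least 2.65-fold higher. Ccl2 and Cxcl1 occurred together in 7 droplets, of the 17 and 13 that held each. Cxcl10 was at 29.6 CPM, at least 1.39-fold higher, with 18 of its 21 UMIs in 1 droplet. Of the 5 members with at least 10 UMIs, 3 were at least 2-fold higher and none lower, where 20.1% of 9290 genes were at least 2-fold higher and 17.3% lower. Ccl2, Ccl7, Cxcl1 and Cxcl10 passed that minimum through the light damage library alone, so the count is a description.

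These UMIs sat in a small group of Müller glia. Cluster 8d, of 26 light damage droplets and 0 control droplets, held 141 of the 150 Ccl2 UMIs, 89 of the 95 Cxcl1 UMIs, 37 of the 40 Ccl7 UMIs and 20 of the 21 Cxcl10 UMIs of the class. Its levels were 446 CPM of Ccl2, 282 of Cxcl1, 117 of Ccl7 and 63.3 of Cxcl10. Against control Müller glia, Ccl2 was at least 21.0-fold higher in these 26 droplets, Cxcl1 at least 13.2-fold, Ccl7 at least 5.51-fold and Cxcl10 at least 2.98-fold. Light damage droplets otherwise lay in cluster 8b, which held 68 of them and 2 control droplets, whereas 50 of the 52 control droplets lay in cluster 8c. Rod markers summed to 47492 CPM in the light damage droplets of 8b and to 3953 CPM in 8d, and Müller markers to 1964 and 13037 CPM. The shares and levels of the whole class after light damage thus include many droplets poor in Müller markers. Microglia markers summed to 5 UMIs in 8d, and Ccl3, Ccl4 and Ccl12 were at 0 there.

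RPE cells held another mixture, of Cxcl1, Ccl2 and Cx3cl1. No spliced or ambiguous UMI of any of the 9 genes was found in the 159 control RPE droplets, which held 1 unspliced UMI of Ccr9. After light damage Ccl2 was at 35.9 CPM (28.6 to 44.4), at least 8.30-fold higher, with its 84 UMIs in 8 of 291 droplets. Cxcl1 was at 26.9 CPM (20.7 to 34.4) in 28 droplets, at least 6.23-fold higher. Cx3cl1 was at 23.1 CPM (17.3 to 30.1) in 33 droplets (11.3%), at least 5.34-fold higher, and RPE held 73.0% of its UMIs in kept droplets. Microglia and cones, of median depth 6336 and 9175 UMIs against 5670 in RPE, had 0 Cx3cl1 UMIs in 41 and 99 droplets. Cxcl10 was at 5.98 CPM in 4 droplets, at least 1.38-fold higher, but the exact interval of its log2 difference starts at -0.02 and includes no difference. Of the 4 members with at least 10 UMIs, 3 were at least 2-fold higher and none lower, where 13.5% of 10282 genes were at least 2-fold higher and 8.75% lower. All 4 had 0 UMIs in control RPE and passed the minimum through the light damage library, so the count supports nothing further.

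Ccl2 and Cx3cl1 were found in different RPE clusters. Cluster 6d (72 light damage droplets) held 83 of the 84 Ccl2 UMIs at 103 CPM, and 35 of the 63 Cxcl1 UMIs. Cluster 6f (48 light damage droplets) held 35 of the 54 Cx3cl1 UMIs at 110 CPM, with 15 more in 6d. Neither cluster had a control droplet, so that they and their library cannot be told apart. Without them, Ccl2 was at 0 UMIs and Cx3cl1 at 4 in the other 171 light damage droplets, while Cxcl1, with 13 UMIs, stayed at least 2.47-fold above control. RPE markers summed to 118531 CPM in 6d and to 40985 CPM in 6f. Cxcl1 and Ccl2 shared 3 droplets, of 28 and 8, and Cxcl1 and Cx3cl1 shared 3, of 28 and 33. At least 1 member was found in 76 of the 291 droplets and at least 2 in 11.

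**Figure D4:**
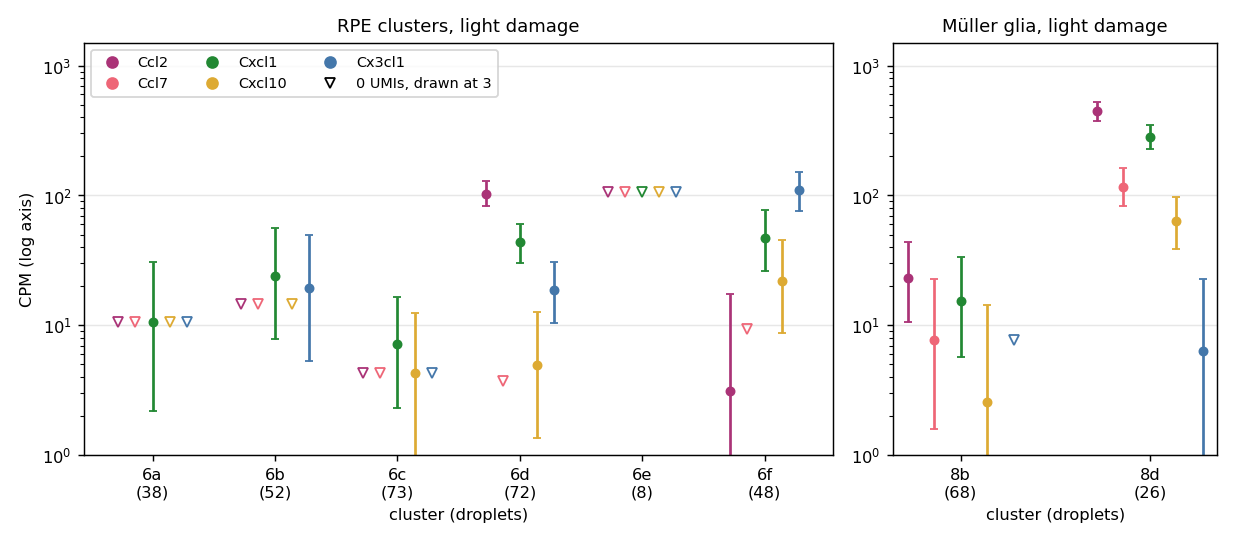
Level (CPM, log axis, with 95% counting intervals) of 5 ligands in the light damage droplets of each RPE cluster and of the Müller glia clusters 8b and 8d, with the number of droplets in brackets; open triangles stand for 0 UMIs and are drawn at the level of 3. Ccl2 stands apart in cluster 6d and Cx3cl1 in 6f, and 4 of the ligands are higher in 8d than in 8b, whereas cluster 8c had 2 light damage droplets and is not drawn.

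Cx3cl1 was also present in bipolar and amacrine cells, neurons of the inner retina, which held 21.6% of its UMIs in kept droplets. It was at 10.9 CPM (1 UMI) in 44 control droplets and at 79.9 CPM (16 UMIs) in 19 light damage droplets, a log2 difference of 2.88 (0.19 to 8.27). The libraries held different clusters of this class, with 21, 5 and 18 control droplets and 2, 16 and 1 light damage droplets in clusters 9a, 9b and 9c. All 16 light damage UMIs lay in 9b, whose 5 control droplets had 0, while the control UMI lay in 9a. By level over the whole class it was above RPE, whose interval of 17.3 to 30.1 CPM does not reach its 45.7 to 130 CPM, and Müller glia had 2 UMIs. This order depends on the mix of clusters, as RPE cluster 6f was at 110 CPM (76.3 to 152) and 9b at 97.7 CPM (55.8 to 159).

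For each ligand the classes of the light damage library could be put in order by level. Ccl2 fell from microglia (603 CPM) to Müller glia (211), RPE (35.9), cones (2.30) and rods (1.20), with non-overlapping intervals except between cones and rods. Cxcl1 fell from Müller glia (134 CPM) to RPE (26.9) and rods (0.630), with non-overlapping intervals, and was at 0 UMIs in cones and microglia. Cxcl10 fell from microglia (193 CPM) to Müller glia (29.6), RPE (5.98) and rods (0.516), also with non-overlapping intervals, although 1 or 2 droplets set the upper 2 values. Ccl7 was at 110 CPM in microglia and at 56.4 CPM in Müller glia, but 1 droplet held 26 of the 41 UMIs in microglia and 1 held 19 of the 40 in Müller glia. Without these droplets, left out after seeing the data, the levels were 41.7 CPM (23.4 to 68.8) and 30.1 CPM (18.6 to 46.0), so that the order of the 2 classes rested on them. Cones had 1 Ccl7 UMI and RPE 0.

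In photoreceptors the ligands among the members were detected at low level only. Rods, of which none of 3182 control droplets held a UMI of a member ligand, had 7.68 CPM of Ccl4 (6.44 to 9.10), 4.24 of Ccl3, 3.84 of Ccl12, 1.20 of Ccl2 and 0.630 of Cxcl1 after light damage. These were at least 25.1-fold, 13.9-fold, 12.6-fold, 3.94-fold and 2.06-fold higher. The share of droplets with a Ccl4 UMI was 2.11% in rods, 2.06% in RPE and 1.01% in cones. Of the 4926 light damage rods, 213 held a UMI of Ccl3, Ccl4 or Ccl12, at most 5 of any 1 gene, and 17 of these (7.98%) also held a microglia marker, against 211 of the other rods (4.48%). The depth of these rods was not compared with that of the others, so no link between marker and ligand is read from the shares. In cones each member ligand had at most 5 UMIs.

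RNA outside cells was measured in the barcodes of under 50 UMIs. There Ccl4 was at 423 CPM, Ccl12 at 404, Ccl3 at 188 and Ccl2 at 53.3 in the light damage library, and the level in rods was 1.82%, 0.95%, 2.26% and 2.26% of these values. Microglia markers in rods stood at 3.90% of their level in those barcodes. Per Ccl3 UMI there were 1.62 Ccl4 UMIs in microglia (1.55 to 1.69), 1.81 in rods (1.35 to 2.44) and 2.25 in the barcodes of under 50 UMIs (2.02 to 2.51). Per Ccl4 UMI there were 0.230 Ccl12 UMIs in microglia (0.216 to 0.244), 0.5 in rods (0.367 to 0.675) and 0.956 in those barcodes (0.877 to 1.04). No expression is read from the low shares in rods, RPE and cones, and their source was not tested. Erythroid markers in rods summed to 54 UMIs in control and to 7080 after light damage, and their relation to the ligand UMIs was not tested. Of the 6 members with at least 10 UMIs in rods all were at least 2-fold higher, where 31.1% of 13875 genes were at least 2-fold higher and 2.42% lower. The ligands among them, all but Ccr9, had 0 UMIs in control rods, and their part in the count is again a description. In cones 0 of 1 was, where 19.3% of 9905 genes were at least 2-fold higher and 5.02% lower.

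Ccr9 was held by rods in both libraries, with 96.0% of its UMIs in kept light damage droplets. Over all rods it was at 17.6 CPM (15.1 to 20.4) in control and at 58.9 CPM (55.4 to 62.6) after light damage. The difference was 3.35-fold, a log2 difference of 1.74 (1.51 to 1.98), and 119 of 3182 control rods (3.74%) and 659 of 4926 light damage rods (13.4%) held a UMI. With each droplet thinned to 1000 UMIs these shares were 1.57% and 5.68%. Cones had 14 and 20.7 CPM, a log2 difference of 0.57 (-0.56 to 1.84), and Müller glia 28.4 and 18.3 CPM, a difference of -0.63 (-2.32 to 1.44). Different clusters held most of the cones, with 138, 42 and 4 control droplets and 11, 37 and 51 light damage droplets in clusters 7a, 7b and 7c. In 7b Ccr9 was at 14.7 CPM (3 UMIs) in control and at 4.94 CPM (1 UMI) after light damage, and 25 of the 27 UMIs of light damage cones lay in 7c. In the barcodes of under 50 UMIs of the light damage library Ccr9 was at 21.5 CPM, so that rods exceeded it, and RPE had 1 UMI in 291 droplets.

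Rods differed in their share of unspliced RNA, and Ccr9 followed that share. Rods with at least 25% unspliced UMIs numbered 764 of 3182 in control and 3137 of 4926 after light damage. In these rods Ccr9 was at 91.4 CPM (77.8 to 107) in control and at 93.4 CPM (87.8 to 99.4) after light damage, a log2 difference of 0.03 (-0.21 to 0.28). In rods under 25% it was at 1.61 CPM (13 UMIs) and 0.769 CPM (5 UMIs), a difference of -1.07 (-2.91 to 0.51). The rise over all rods was thus not seen within either group of rods, and the number of rods with a high unspliced share moved with it. Between high and low rods the log2 difference was 5.83 (5.01 to 6.77) in control and 6.92 (5.70 to 8.55) after light damage. A larger ratio of high to low was found for 89 of 11134 control genes (0.799%) and 8 of 13362 light damage genes (0.0599%). At least 2-fold higher in high than in low rods were 41.5% of the genes in control and 46.4% after light damage.

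**Figure D5:**
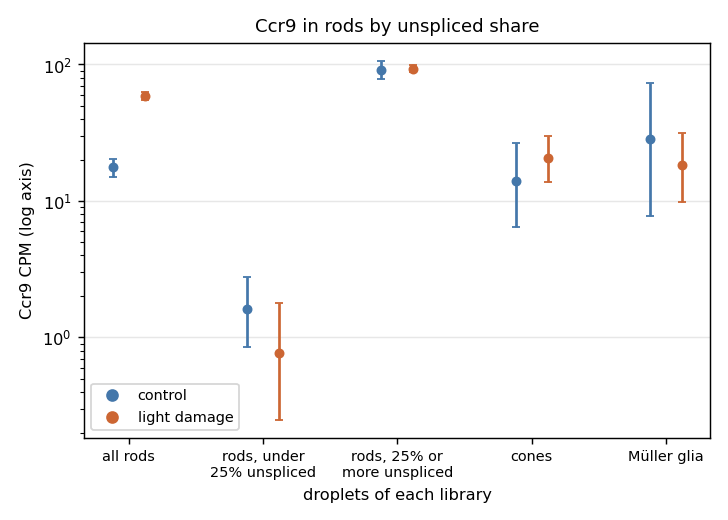
Ccr9 level (CPM, log axis) with 95% counting intervals in all rods, in rods under and over 25% unspliced UMIs, in cones and in Müller glia of the control (blue) and light damage (orange) library. All rods differ between the libraries, while rods of 25% or more stand at 91.4 and 93.4 CPM.

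Ccr9 transcripts were themselves largely unspliced. Unspliced UMIs, which are left out of the levels above, made up 66.3% of the Ccr9 UMIs in control rods (62.0 to 70.4) and 59.6% in light damage rods, against 0.496% of Ccl3 UMIs in light damage microglia. Of the counted genes, Lztfl1, AC165425.1, Gm17200 and Slc6a20a overlap the annotated span of Ccr9. Lztfl1, on the opposite strand, was at 175 and 152 CPM in the high rods of control and light damage and at 154 and 162 CPM in the low rods. AC165425.1, also on the opposite strand, was at 17.7 and 18.8 CPM in high rods, and Gm17200, on the same strand, at 2.86 and 2.01 CPM. Slc6a20a, on the opposite strand and sharing 447 bases with Ccr9, was at 9.14 and 8.04 CPM in high rods and at 3.47 and 5.69 CPM in low rods. Counting kept only reads on the strand of the gene.

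Each member was set beside the genes whose level over 12 groups (each class in each library with at least 10 droplets) was most like its own, by Pearson's r of log2 CPM over 12679 genes. The genes named share libraries and droplets with the member, and r is a description. Ccl3 was closest to C3ar1 (r = 0.998), the receptor of complement C3a, and Ccl12 to Ccl4 (0.995). Ccl3, Ccl4 and Ccl12 were far higher in light damage microglia than in any other group, so their r rests mainly on that group. Across its droplets Spearman's correlation of Ccl4 and Ccl12 was -0.18. Cxcl1 was closest to Upp1 (0.97), Timp1 (0.94) and Plekhf1 (0.94), Ccl2 to Spsb1 (0.97), and Cxcl10 to Ptgs2 (0.99), the inducible cyclooxygenase. Cx3cl1 had lower values, with Amigo2 and Nebl at 0.90, and Ccr9 was closest to Ccdc163 (0.97).

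The other chemokine ligands were counted from a list of 37 genes in the files, members included. This and the lists that follow stand beside the shares of all tested genes at least 2-fold higher and lower, which were 14.6% and 18.1% in microglia, 20.1% and 17.3% in Müller glia, 13.5% and 8.75% in RPE, 19.3% and 5.02% in cones, and 31.1% and 2.42% in rods. In microglia 9 of the 13 ligands with at least 10 UMIs were at least 2-fold higher after light damage and none lower, with a median log2 difference of 2.56, a gene at 0 UMIs in 1 library entering at its bound. Beside the members, and with the control value given first here and below, these were Ccl6 (61.1 and 498 CPM, log2 difference 3.03, 1.15 to 6.08), Ccl9 (91.7 and 992 CPM, 3.44, 1.88 to 5.72), the monocyte attractant Cxcl14 (0 UMIs and 201 CPM) and Cxcl16 (0 UMIs and 541 CPM, at least 5.91-fold higher), the ligand of Cxcr6. In Müller glia 4 of 8 were higher, among them Cxcl2, a neutrophil attractant that also binds Cxcr2, at 0 UMIs and 352 CPM, at least 16.6-fold higher. In RPE 6 of 10 were higher, among them Cxcl5 (0 UMIs and 60.2 CPM, at least 13.9-fold), a further Cxcr2 ligand, Cxcl16 (4.32 and 14.1 CPM) and Ccl9 (1.44 and 7.69 CPM), and 1 lower, Ccl27a (13 and 3.84 CPM, log2 difference -1.75). In rods 7 of 8 and in cones 2 of 2 were higher, among them Ccl25, the ligand of Ccr9, at 3.11 and 22.3 CPM in cones and at 11.7 and 23.4 CPM in rods. The median log2 difference of the ligands was 1.17 in Müller glia, 2.06 in RPE, 1.95 in cones and 1.58 in rods. Over all genes with at least 10 UMIs it was 0.00 in microglia, 0.04 in Müller glia, 0.02 in RPE, 0.28 in cones and 0.62 in rods. In this list and those below, genes at 0 control UMIs passed the minimum through the light damage library alone. The counts and medians are thus a description without further support.

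Among 23 receptor genes, those of RPE moved in both directions. In RPE 1 of the 2 with at least 10 UMIs was at least 2-fold higher, the atypical receptor Ccrl2 (2.88 and 16.7 CPM, log2 difference 2.53, 0.58 to 5.63), and 1 lower, the scavenging receptor Ackr3 (80.7 and 20.5 CPM, log2 difference -1.98). In Müller glia 0 of 1, in cones 1 of 2 (Ackr1, 15.6 and 75.3 CPM) and in rods 6 of 9 were higher.

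Genes of NF-kB signalling and inflammatory cytokines, 15 in all, were counted in the same way. In RPE 12 of 12 with at least 10 UMIs were at least 2-fold higher, among them Nfkbia, the inhibitor that NF-kB induces (10.1 and 171 CPM, log2 difference 4.09), the adhesion molecule Icam1 (0 UMIs and 108 CPM) and Il6 (0 UMIs and 94.4 CPM). In Müller glia 8 of 9 were higher, among them Nfkbia (49.6 and 244 CPM), Icam1 (7.09 and 161 CPM) and Tnfaip3, a further NF-kB inhibitor (21.3 and 179 CPM). In microglia 8 of 13 were higher, among them the lipopolysaccharide co-receptor Cd14 (306 and 2417 CPM, 2.98) and Il1b (0 UMIs and 783 CPM, at least 8.54-fold). In cones 3 of 7 and in rods 8 of 10 were higher, and none was lower in any class. The median log2 difference was 1.49 in microglia, 2.30 in Müller glia, 2.54 in RPE, 0.51 in cones and 1.47 in rods.

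Interferon target genes numbered 11. Of these 0 of 2 were higher in microglia, 3 of 7 in Müller glia (Gbp2 at 228 CPM, at least 10.7-fold higher), 3 of 8 in RPE (Irf1 at 5.76 and 64.5 CPM) with 1 lower, Ifit2, 2 of 2 in cones and 3 of 5 in rods. Of 10 genes of homeostatic microglia, 6 were at least 2-fold lower in light damage microglia and none higher, among them Siglech (1192 and 515 CPM) and P2ry12 (642 and 209 CPM), with a median log2 difference of -1.30. Genes of the dissociation response, which tissue digestion itself can induce, were also higher after light damage. Higher were 7 of 10 in microglia, 9 of 11 in Müller glia and 10 of 12 in rods. In RPE 9 of 11 were higher and 1 lower, and in cones 9 of 12 were higher and 1 lower. The stated digestion was the same for both libraries, but with 1 library each, handling and condition cannot be told apart. Fos was at 30.6 and 260 CPM in microglia, at 7.09 and 572 CPM in Müller glia and at 5.76 and 269 CPM in RPE. The part of this response in the chemokine values was not tested.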

How the data were processed

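Retinal cells of 1 control and 1 light damage pool were captured with the 10x Genomics 3′ v3.1 chemistry. Per the submitters' processing notes, reads were handled with Cell Ranger 7.0.1, Salmon 1.10.1 and alevin-fry 0.8.1 on mm10, and the deposited values are UMI counts per gene and barcode, unfiltered and not normalized, split by the authors into spliced, unspliced and ambiguous counts. Only reads on the strand of the gene were counted. Identifiers were named with the GENCODE annotation of GRCm38 (32235 of 32285).

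Barcodes above the inflection of the rank curve (1464 UMIs in control, 1614 in light damage) with under 10% mitochondrial UMIs were kept. The droplets with the highest Scrublet scores were removed, at 0.8% per 1000 droplets (114 and 276), since its automatic threshold called 1 and 0. Cells were clustered with scanpy 1.11.5 and leidenalg 0.10.2 (Python 3.11.15) on 2000 variable genes that excluded all chemokine genes, with 50 principal components, 15 neighbours and resolution 1, and clusters other than rods were split again at 0.5. Clusters were named where at least 3 markers were each detected in at least 10% of droplets. Names were rebuilt here and can differ from the study's. Droplets in unnamed clusters numbered 27 and 113.

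Spliced and ambiguous UMIs were summed per class and library and given as CPM with exact Poisson intervals, shares with exact binomial (Clopper-Pearson) intervals, and ratios with exact conditional binomial intervals (scipy 1.17.1). No p-value was computed, since cells of 1 pool are no replicates. A gene needed at least 10 UMIs over both libraries of a class, and was counted as higher or lower past 2-fold. A count of 0 was set to a floor of 3 UMIs over the group. The resulting ratio, given as "at least", is a bound at that floor and leaves out the counting error of the other library. Cells were thinned to 1000 UMIs to compare shares. Likeness between genes used a pseudocount of 10 CPM. The scripts were tested on simulated data.

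The 9 members and all gene lists and markers were chosen with earlier results of these data known. The genes named are the members, at most 4 other genes of each list and class past 2-fold by UMIs, the genes most like each member (up to 3), and genes near Ccr9. Values of some listed genes are not reported here.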

Additional observations from a re-analysis of the deposited data

Results flagged for a closer look

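Chemokine UMIs were found outside the droplets that the comparisons use. In barcodes of under 50 UMIs of the light damage library Ccl4 was at 423 CPM, Ccl12 at 404 CPM, Ccl3 at 188 CPM, Ccl2 at 53.3 CPM and Cxcl10 at 13.3 CPM, each above its level in the same barcodes of the control library. The genes differed in how much of them lay there. For Ccl12 it was 32.8% of all its UMIs (31.2 to 34.5), against 13% for Ccl4, 10.0% for Ccl3 and 9.14% for the summed microglia markers (8.61 to 9.69). As a share of the level in microglia, the level in these barcodes was 11.9% for Ccl12, 2.86% for Ccl4, 2.06% for Ccl3 and 1.79% for the microglia markers. The cause was not tested.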

How the results depend on the processing

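No paired analysis was possible because each condition had 1 library, and no library could be left out. Under other settings no result reversed, but 116 of 445 CPM values, 89 of 680 shares and 32 of 311 light-damage-to-control ratios moved past their counting interval, among them 21 of 42 CPM values when the droplet with the most UMIs of the gene was left out. The number of members at least 2-fold higher was 4 to 5 in microglia, 2 to 4 in Müller glia and 3 in RPE under every setting planned. With unspliced UMIs added it was 1 in cones in place of 0, and at 4-fold it was 3 in rods in place of 6. Without RPE clusters 6d and 6f, a setting chosen after seeing the data, it was 1 in RPE in place of 3. The log2 difference of Ccr9 between rods of high and low unspliced share was 4.94 in control and 4.66 after light damage with unspliced UMIs added, and 9.15 after light damage with rods parted at 20%. Leaving out the droplet with the most UMIs of each gene left 4 members in microglia and 2 in Müller glia. The other settings chosen after seeing the data were microglia cluster 10a alone, Müller glia cluster 8d alone after light damage, leaving out the barcodes that both libraries share, and leaving out the droplet richest in Ccl2 in cluster 10a and, with all its UMIs, the droplet richest in Ccl7 in microglia and Müller glia. Depth limited control microglia most, where 3 UMIs give 91.7 CPM.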
